A study of Mus musculus with 8 samples.

Results

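The data describe P2Y2 KO cADSC treated with UTP set against WT cADSC treated with UTP, in the 4 UTP-treated libraries of an RNA-sequencing series with 8. cADSC are the plastic-adherent stromal cells (adipose-derived stem cells) grown from the cardiac adipose tissue of mice. The P2Y2 KO+UTP group carries a germline deletion of the P2Y2 receptor and received UTP at 100 µM every day for 7 days, and the WT+UTP group received the same UTP without the deletion. The untreated P2Y2 KO and WT groups were grown for 7 days without UTP and serve here to show which genotype differences were also present without the nucleotide. All groups shared the same medium with fetal bovine serum, and each group has 2 libraries. The study names 2 RNA pools and 2 cultures for each condition. Whether each pool had 2 cultures of its own is not clear from its wording. The labels give C57BL/6J for every sample, whereas the study's methods name a CD1/C57BL/6J line for the knockout and adult males and females used at random, so that strain background and genotype cannot be told apart. Members were all genes above 0.5 CPM (counts relative to the library total, in the usual sequencing unit) in at least 2 of the 8 libraries, which were 17529 of the 52636 genes in the tables.

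P2Y2 is a G protein-coupled receptor of the cell surface that is activated by extracellular UTP and ATP. It couples mainly to Gq proteins, which act through phospholipase C, calcium release and protein kinase C, and extracellular nucleotides leave damaged and stressed cells in the heart and in fat. Adipose stromal cultures hold mesenchymal progenitors together with variable numbers of macrophages and other cells of the stromal vascular fraction. In bulk RNA, fewer cells of a type and less RNA per cell cannot be told apart.

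The libraries were close in depth, with an estimated 18600263 to 22018287 counted reads each. The deposited values, taken here as scaled counts, sum to 20008555 to 20015454 per library. With this depth, a gene without counts could still lie as high as 0.15 CPM (3 counts), as far as counting error goes. The first principal component held 52.6% of the variance and separated the 4 P2Y2 KO libraries from the 4 WT libraries. Libraries differed in a sex-linked RNA. P2Y2 KO+UTP replicate 1 and P2Y2 KO replicate 1 had 0.1 CPM of Xist, the RNA of the inactive X chromosome, WT replicate 1 had 452 CPM, and the other 5 held 215 to 249 CPM. With the male share estimated from Xist as a covariate, 3243 genes passed the test between the UTP-treated genotypes, and 2595 of them were among the calls described below. Cxcl10, Zbp1, Nfatc2, Nfatc4, Il7r, Tpsb2 and Cpa3, which are described below as called, did not pass with this covariate (adjusted p 0.226, 0.0526, 0.0625, 0.0966, 0.0617, 0.0731 and 0.101). Whether same-numbered pools came from the same isolations is not given in the sources used here.

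The labelled cell type was met by its markers. The mesenchymal markers Pdgfra, Thy1, Eng and Cd44 were present in all 4 UTP-treated libraries at 91.8 CPM or more. The summed level of the mesenchymal progenitor list was 13570.0 and 13060.0 CPM in P2Y2 KO+UTP cells, against 13570.0 and 13170.0 CPM in WT+UTP cells. Macrophage markers were also present in every library (Csf1r at 327 and 354 CPM in P2Y2 KO+UTP cells, against 166 and 149 CPM in WT+UTP cells), whereas 1 red blood cell gene was above the minimum. The targeted gene could not check the labels, and the P2Y2 KO groups are named here as labelled. P2ry2 had 13.7 and 15.04 CPM in P2Y2 KO+UTP cells, against 16.4 and 16.4 CPM in WT+UTP cells (log2 fold change -0.19, SE 0.10, adjusted p = 0.238), so that transcript was still counted in the knockout at a level close to WT. The part of the gene that was deleted is not given in the sources used here.

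Of 17529 genes, 3053 differed between P2Y2 KO+UTP and WT+UTP cells at an adjusted p under 0.05 (17.4% of the genes tested). Expression was higher in P2Y2 KO+UTP cells for 1668 of them (9.52%) and lower for 1385 (7.9%). Among the calls, 572 were at least 2-fold higher and 180 at least 2-fold lower. The median log2 fold change over all genes tested was 0.003. The normalization between libraries centres most genes near 0, so this value does not show whether total RNA was alike. The fold change rule of the study's methods, applied here to mean CPM (a ratio beyond 2 or 0.5 among genes whose higher mean exceeded 0.5 CPM), gave 1165 of 17339 genes (6.72%), 874 higher and 291 lower.

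**Figure D1:**
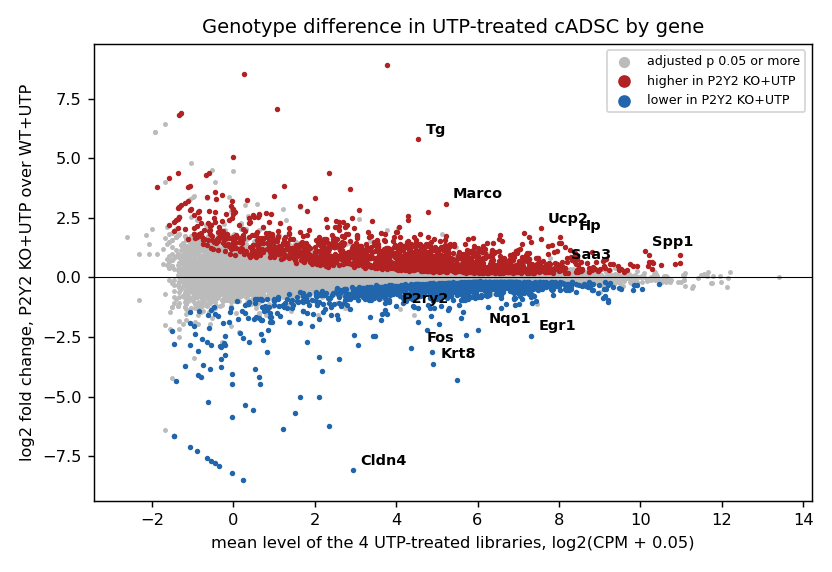
Log2 fold change (P2Y2 KO+UTP over WT+UTP) of each of the 17529 genes against its mean level in the 4 UTP-treated libraries (log2 of CPM + 0.05), with the 1668 genes called higher in red, the 1385 called lower in blue and the others in grey. Large differences occur at every level, from Cldn4 at the low end to Spp1 among abundant genes, and P2ry2 lies in the grey band.

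Single libraries weighed on the number of calls. It was 1158 without P2Y2 KO+UTP replicate 1, 1540 without P2Y2 KO+UTP replicate 2, 784 without WT+UTP replicate 1 and 631 without WT+UTP replicate 2, and 501 genes kept their call without each of the 8 libraries in turn. DESeq2 called 2062 genes, of which 1931 were among the 3053. Of the genes named below, Ccl5, Enpp2, Mmp3, Hoxa4, Il7r, Tpsb2 and Cpa3 did not pass with DESeq2 (adjusted p 0.0909, 0.0995, 0.0747, 0.0749, 0.131, 0.0812 and 0.225).

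Without UTP, 3628 genes differed between P2Y2 KO and WT cells (20.7% of the genes tested), and 1913 genes were called in both comparisons, all in the same direction. These were 62.7% of the calls with UTP and 52.7% of the calls without it. The direction was the same without UTP for 3022 of the 3053 genes and the opposite for 31. The comparisons use different libraries but share the estimate of the spread. Same-numbered P2Y2 KO pools with and without UTP deviated together from their group means (r = 0.42 across genes).

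The test of the difference itself, the genotype effect with UTP minus the effect without it, called 0 genes with edgeR (0.0% of the genes tested) and 0 with limma. At an unadjusted p under 0.05 it gave 922 genes, DESeq2 called 6, and without WT replicate 2 edgeR called 273. The lowest adjusted p was 0.837, shared by the 10 genes with the lowest p. C1qa, C1qb and C1qc, the 3 chains of the complement recognition protein C1q, were among these 10. C1qa had 137 and 143 CPM in P2Y2 KO+UTP cells, against 45.2 and 46.4 CPM in WT+UTP cells, and without UTP it had 266 and 222 CPM in P2Y2 KO cells, against 158 and 135 CPM in WT cells. The log2 fold change between genotypes was 1.62 with UTP and 0.73 without it (difference 0.88, SE 0.15, unadjusted p = 0.000247). Marco, a scavenger receptor of macrophages, had 62.2 and 70.5 CPM in P2Y2 KO+UTP cells, against 7.55 and 8.10 CPM in WT+UTP cells, and 32.6 and 18.8 CPM in untreated P2Y2 KO cells, against 11.9 and 8.60 CPM in untreated WT cells (difference of the log2 fold changes 1.77, SE 0.36, unadjusted p = 0.000963). The sialic acid receptor gene Siglec1 and Rcan1, an inhibitor of calcineurin, also had a larger fold with UTP, and Draxin, a secreted axon guidance factor, had a smaller one (0.03 with UTP, adjusted p = 0.915, and 0.96 without it). None of these differences passed the adjustment over all genes.

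Many of the genes with the largest differences were near on-or-off between the UTP-treated genotypes. Several of the highest were processed pseudogenes of ribosomal proteins, whose reads cannot be fully separated from their expressed parent genes and which are therefore uncertain. Rps13-ps1 had 1083 scaled counts over both P2Y2 KO+UTP libraries and 2 over both WT+UTP libraries (ratio 541.5, 95% counting interval 149.5 to 4477). Rps15a-ps8, Rps15a-ps7 and Rps15a-ps6 followed the same pattern, the last with 8.10 and 6.25 CPM in P2Y2 KO+UTP cells, against 0.6 and 0.8 CPM in WT+UTP cells. The highest protein-coding gene was Tg, which encodes thyroglobulin, the precursor of thyroid hormones. Tg had 46.3 and 45.5 CPM in P2Y2 KO+UTP cells, against 0.8 and 0.85 CPM in WT+UTP cells (log2 fold change 5.79, SE 0.14, adjusted p = 3.75e-07), and its overlapping antisense gene Gm17140 rose with it, although the strand setting of the counting is not given and reads of the pair may not have been told apart. Tg was as different without UTP, at 69.5 and 77.9 CPM in P2Y2 KO cells, against 1.149 and 0.85 CPM in WT cells. Acod1, the enzyme that makes itaconate in activated macrophages, had 20.9 and 6.20 CPM in P2Y2 KO+UTP cells, against 1.05 and 1 CPM in WT+UTP cells (log2 fold change 3.72, SE 0.58, adjusted p = 0.00522, and up to 0.06 without either WT+UTP library), with the first P2Y2 KO+UTP library far above the second. Without UTP Acod1 had 0.95 and 1.45 CPM in P2Y2 KO cells, against 0.5 and 0.7 CPM in WT cells, and did not pass (log2 fold change 0.99, adjusted p = 0.434). Spib, a transcription factor of B cells and dendritic cells, Prtn3, a serine protease of granulocytes, and Cyp2e1, an oxidase of xenobiotics, were also among the highest, at under 2 CPM. At the low end most genes were keratins, claudins or other epithelial genes with no count in 1 or both P2Y2 KO+UTP libraries, described below with their list. Several of the low-end genes were also low in untreated WT replicate 1, such as Prss22 and Fgfbp1 at 0.1 CPM each. Krt4 and Gm10320 were not as low in that library, at 1.30 and 4.55 CPM.

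Macrophage genes were higher in P2Y2 KO+UTP cells as a group. Of 30 macrophage identity genes, 25 rose and 0 fell (83.3%, against 17.4% of all genes), with a median log2 fold change of 1.06 against 0.003 over all genes. Their summed level was 4401 and 4537 CPM in P2Y2 KO+UTP cells, against 2182 and 2064 CPM in WT+UTP cells. Adgre1, which encodes the macrophage antigen F4/80, had 168 and 196 CPM in P2Y2 KO+UTP cells, against 78.3 and 79.97 CPM in WT+UTP cells (log2 fold change 1.21, SE 0.20, adjusted p = 0.00645, and up to 0.0624 without either WT+UTP library). Csf1r, the receptor that keeps macrophages alive, was higher as well (log2 fold change 1.12, SE 0.19, adjusted p = 0.00678, and up to 0.073 without either WT+UTP library). The highest folds were those of C1qb (219 and 223 CPM in P2Y2 KO+UTP cells, against 62.8 and 59.2 CPM in WT+UTP cells) and C1qc (138 and 151 CPM in P2Y2 KO+UTP cells, against 43.9 and 41.5 CPM in WT+UTP cells). Fcgr1, an activating receptor for IgG, and Cd163, the scavenger receptor for haemoglobin, rose by 1.70 and 1.71 on the log2 scale at 10.2 CPM or less. The groups did not overlap in these genes, which held for all 3053 calls and is not particular to them.

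Sums of the same 30 genes were higher without UTP in both genotypes, at 6449 and 5551 CPM in P2Y2 KO cells, against 5082 and 3559 CPM in WT cells, where 7 of the 30 passed. The median log2 fold change between genotypes was 1.06 with UTP and 0.41 without it. For the difference of the 2 effects, 21 of the 30 had an unadjusted p under 0.05 with edgeR (922 of all 17529 genes). None of them passed the adjustment. The count with UTP was 19 without P2Y2 KO+UTP replicate 1, 20 without P2Y2 KO+UTP replicate 2, 13 without WT+UTP replicate 1 and 6 without WT+UTP replicate 2, so that removing the second WT+UTP library left the fewest calls. C1qa, C1qb and C1qc kept their calls without each library. Cd68, a lysosomal antigen of macrophages, lost its call without either WT+UTP library (highest adjusted p 0.0809), and Cd163 and Fcgr1 lost theirs without any of the 4 UTP-treated libraries (highest adjusted p 0.17 and 0.103).

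Receptors and enzymes that macrophages also express moved the same way where they were called. Of 19 Siglec and C-type lectin genes, 10 rose and 0 fell (52.6%, against 17.4% of all genes). Among them was Clec4e, which encodes the glycolipid receptor Mincle (32.2 and 22.7 CPM in P2Y2 KO+UTP cells, against 6.80 and 5.75 CPM in WT+UTP cells, log2 fold change 2.13, SE 0.20, adjusted p = 0.00143). Of 10 genes of resident macrophages, 4 rose and 0 fell (40%, against 17.4% of all genes), and 4 had a negative log2 fold change without passing. Marco was the highest of the 4 that rose (log2 fold change 3.09, SE 0.25, adjusted p = 0.000744). Gas6, a secreted ligand of the TAM receptors that stromal cells also make, had 703 and 722 CPM in P2Y2 KO+UTP cells, against 431 and 418 CPM in WT+UTP cells. Among 19 genes of foam cells and lipid handling, 11 rose and 0 fell (57.9%). Spp1, which encodes the matrix protein osteopontin, had 1579.6 and 1435 CPM in P2Y2 KO+UTP cells, against 737 and 679.6 CPM in WT+UTP cells (log2 fold change 1.09, SE 0.20, adjusted p = 0.00834, and up to 0.0823 without either WT+UTP library). Among 17 lysosome and osteoclast-type genes, 10 rose and 0 fell by smaller folds (58.8% called). The lysosomal protease gene Ctsd reached 2378 and 2473 CPM in P2Y2 KO+UTP cells, against 1599.7 and 1560.1 CPM in WT+UTP cells (log2 fold change 0.62, SE 0.08, adjusted p = 0.00301). Without WT+UTP replicate 2 the calls numbered 2 of 19 Siglec and lectin genes, 2 of 10 resident macrophage genes, 3 of 19 foam cell genes and 3 of 17 lysosome genes. The macrophage identity genes moved with these lists, and their part in the result was not tested.

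**Figure D2:**
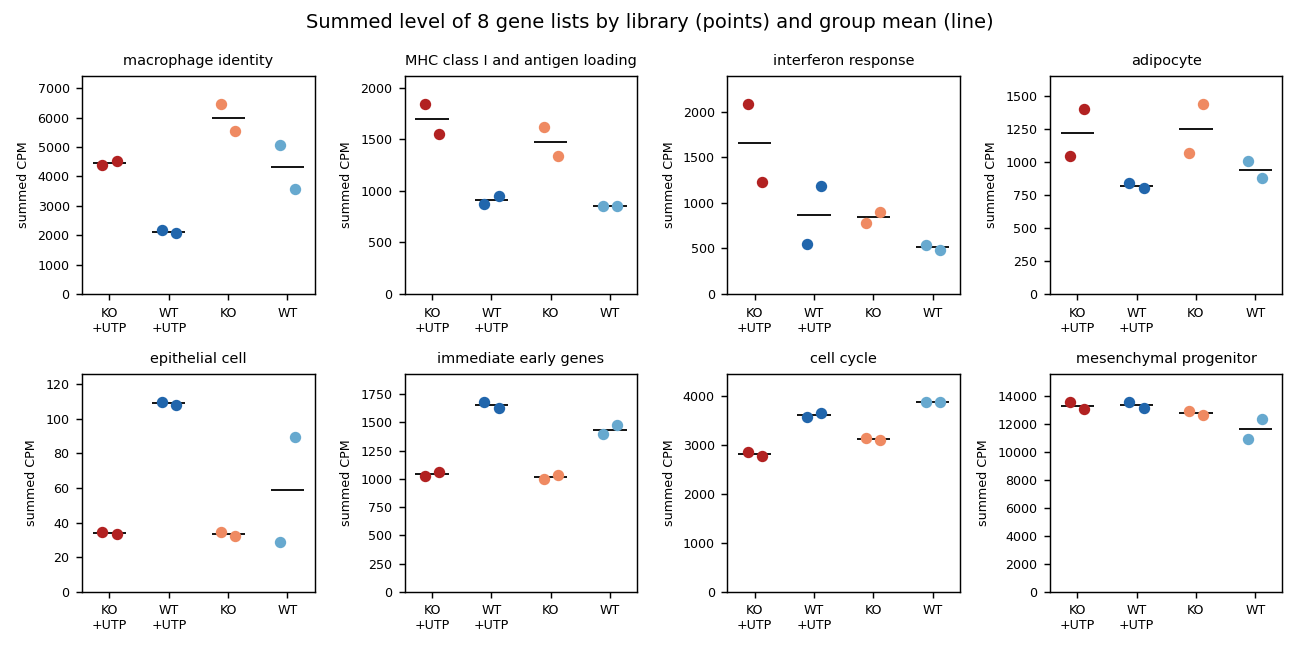
Summed CPM of 8 gene lists in each of the 8 libraries (points) with the mean of each group (line), for P2Y2 KO+UTP, WT+UTP, untreated P2Y2 KO and untreated WT cells. Macrophage and MHC class I sums are higher in both P2Y2 KO+UTP libraries than in both WT+UTP libraries. Cell cycle and immediate early sums are lower. Interferon sums vary widely between the 2 UTP-treated libraries of each genotype. The epithelial sum is far lower in untreated WT replicate 1 (28.9 CPM) than in untreated WT replicate 2 (89.3 CPM). Mesenchymal sums are level between the UTP-treated genotypes.

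Chemokines and acute-phase genes were mostly higher in P2Y2 KO+UTP cells. Of 24 chemokine genes, 14 rose and 1 fell (62.5%, against 17.4% of all genes), with a median log2 fold change of 0.99. Ccl12, a ligand of the monocyte receptor Ccr2, had 12.7 and 6.35 CPM in P2Y2 KO+UTP cells, against 1.90 and 1.75 CPM in WT+UTP cells (log2 fold change 2.38, SE 0.41, adjusted p = 0.00736, and up to 0.0715 without either WT+UTP library). Ccl4, a chemokine of activated macrophages, had 17.2 and 13.4 CPM in P2Y2 KO+UTP cells, against 5.05 and 4.30 CPM in WT+UTP cells (log2 fold change 1.71, SE 0.23, adjusted p = 0.00349), and Ccl5, a chemokine that attracts T cells and monocytes, was low in every library at 3.05 and 2.30 CPM in P2Y2 KO+UTP cells, against 0.95 and 1 CPM in WT+UTP cells (log2 fold change 1.45, SE 0.24, adjusted p = 0.00657, and up to 0.0624 without either WT+UTP library). Cxcl5, a neutrophil attractant, had 79.2 and 36.8 CPM in P2Y2 KO+UTP cells, against 32.03 and 29.2 CPM in WT+UTP cells and did not pass (log2 fold change 0.92, SE 0.39, adjusted p = 0.143), with its first P2Y2 KO+UTP library far above its second. Cxcl10, which attracts T cells and is induced by interferon, had 26.0 and 3.55 CPM in P2Y2 KO+UTP cells, against 1.25 and 2.90 CPM in WT+UTP cells (log2 fold change 2.83, SE 0.81, adjusted p = 0.0468, and up to 0.32 without P2Y2 KO+UTP replicate 1 or either WT+UTP library or either untreated P2Y2 KO library), with the first P2Y2 KO+UTP library far above the second. The gene that fell was Ppbp, a chemokine known from platelets, with 0.1 and 0 CPM in P2Y2 KO+UTP cells, against 4.70 and 4.398 CPM in WT+UTP cells. These were 2 against 182 scaled counts (ratio 91.0, counting interval 24.8 to 757), and the call (adjusted p = 0.0115) was lost without any of the 4 UTP-treated libraries (highest adjusted p 0.0643). Without UTP it had 0.1 and 0.05 CPM in P2Y2 KO cells, against 0.4 and 3.998 CPM in WT cells, so that WT replicate 1 was near the P2Y2 KO libraries.

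Of 17 acute inflammation genes, 10 rose and 2 fell (70.6%, against 17.4% of all genes). Saa3, an acute-phase apolipoprotein made by fat stromal cells and macrophages, had 442 and 327 CPM in P2Y2 KO+UTP cells, against 138 and 145 CPM in WT+UTP cells (log2 fold change 1.45, SE 0.20, adjusted p = 0.00356). Hp, which encodes haptoglobin, the plasma protein that binds haemoglobin, had 384 and 414 CPM in P2Y2 KO+UTP cells, against 128 and 122 CPM in WT+UTP cells (log2 fold change 1.68, SE 0.09, adjusted p = 7.67e-05). Saa3 and Hp kept their calls without each library and were of similar fold without UTP, with log2 fold changes of 1.55 and 1.71. Lcn2, an iron-sequestering protein of innate defence, had 21.2 and 14.5 CPM in P2Y2 KO+UTP cells, against 3.05 and 3.798 CPM in WT+UTP cells (log2 fold change 2.38, SE 0.37, adjusted p = 0.00482, and up to 0.0565 without WT+UTP replicate 1). Tnf, the inflammatory cytokine of macrophages, had 11.7 and 7.59 CPM in P2Y2 KO+UTP cells, against 2.95 and 1.90 CPM in WT+UTP cells (log2 fold change 1.99, SE 0.34, adjusted p = 0.00736, and up to 0.0765 without WT+UTP replicate 2). Its log2 fold change was 1.99 with UTP and 0.19 without it, a difference that did not pass (unadjusted p = 0.00446). Ptgs2, which encodes the prostaglandin-forming enzyme Cox-2 and was chosen after its values were seen, fell with 19.04 and 22.2 CPM in P2Y2 KO+UTP cells, against 47.1 and 48.2 CPM in WT+UTP cells (log2 fold change -1.20, SE 0.17, adjusted p = 0.0037). Without single libraries the chemokine count ranged from 3 (without WT+UTP replicate 1 or 2) to 16, and the acute inflammation count from 6 (without WT+UTP replicate 1 or 2) to 15.

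All 14 genes of MHC class I and its antigen loading rose (100%, against 17.4% of all genes called), with a median log2 fold change of 0.92. MHC class I proteins carry peptides from inside the cell to its surface for T cells. H2-K1, a classical class I heavy chain, had 348 and 289 CPM in P2Y2 KO+UTP cells, against 146 and 157 CPM in WT+UTP cells (log2 fold change 1.07, SE 0.13, adjusted p = 0.00284). B2m, the light chain shared by all class I molecules, was held as a reference gene and rose as well (450.3 and 421 CPM in P2Y2 KO+UTP cells, against 237 and 273 CPM in WT+UTP cells; log2 fold change 0.78, SE 0.09, adjusted p = 0.00256). Nlrc5, the transactivator of class I genes, had 20.04 and 14.2 CPM in P2Y2 KO+UTP cells, against 4.75 and 6.70 CPM in WT+UTP cells (log2 fold change 1.58, SE 0.23, adjusted p = 0.00402). H2-Q6 and H2-Q7, near-identical class I genes whose reads may have been shared, had folds of 2.11 and 2.11 on the log2 scale at 13.7 CPM or less (highest adjusted p 0.0503 and 0.062 with 1 library left out). The difference was present without UTP, where 13 of the 14 rose with a median of 0.87. It held for 10 genes without P2Y2 KO+UTP replicate 1, 13 without P2Y2 KO+UTP replicate 2 and 8 without either WT+UTP library.

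Interferon genes differed less clearly. All 35 tested had a positive log2 fold change (median 1.20), and 10 passed (28.6%, against 17.4% of all genes), with a wide spread between the libraries of a group. The summed level of the list was 2081 and 1228 CPM in P2Y2 KO+UTP cells, against 546 and 1189 CPM in WT+UTP cells, so that the second WT+UTP library nearly reached the second P2Y2 KO+UTP library. Ifit1, an interferon-induced RNA-binding protein chosen after its values were seen, had 131 and 47.4 CPM in P2Y2 KO+UTP cells, against 8.60 and 69.7 CPM in WT+UTP cells (log2 fold change 1.18, SE 0.76, adjusted p = 0.328), and the groups overlapped. Ifi27l2a, an interferon-induced gene of myeloid cells, had the highest fold of the 10 calls (43.98 and 30.4 CPM in P2Y2 KO+UTP cells, against 8.55 and 12.7 CPM in WT+UTP cells; log2 fold change 1.81, SE 0.25, adjusted p = 0.00373). Zbp1, a sensor of Z-form nucleic acids, had 50.8 and 32.2 CPM in P2Y2 KO+UTP cells, against 6.75 and 19.2 CPM in WT+UTP cells (log2 fold change 1.68, SE 0.41, adjusted p = 0.0265, and up to 0.136 without P2Y2 KO+UTP replicate 1 or WT+UTP replicate 1). The count of calls was 1 without P2Y2 KO+UTP replicate 1, 16 without P2Y2 KO+UTP replicate 2, 2 without WT+UTP replicate 1 and 19 without WT+UTP replicate 2, and 5 with the male-share covariate.

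The promoter windows of these genes (250 bases before to 50 after the start, RefSeq on GRCm38.p6) were searched on both strands for the letters GAAA, any 2 bases and GAAA again, the core of the element bound by interferon-activated factors, and for CCAAT, which is bound by the factor NF-Y. The repeated GAAA stood in the windows of 3.99% of all 27025 genes with a window, in 17 of the 26 interferon genes with one and in each of the 7 of these that were called. CCAAT was in 41.1% of all genes and in 11 of the 12 class I genes with a window. The stretches around the sites of the 4 called interferon genes and the 3 class I genes with the largest folds among those with a match are printed to show the letters that they share, with the repeated GAAA or CCAAT (or ATTGG, its other strand) in capitals. In Oas1g, Oas1a and Bst2 a pair of matches overlaps and is capitalised as 1 run. A match is a description of letters and not of binding.
Oas1g (chr5:120887614-120887649, minus strand): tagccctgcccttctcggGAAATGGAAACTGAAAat
Oas1a (chr5:120907526-120907563, minus strand): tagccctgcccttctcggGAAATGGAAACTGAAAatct
Bst2 (chr8:71537575-71537620, minus strand): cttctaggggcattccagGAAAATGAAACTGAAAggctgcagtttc
Ifi203 (chr1:173942500-173942545, minus strand): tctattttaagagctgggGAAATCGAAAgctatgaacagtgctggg
H2-Q6 (chr17:35424777-35424817, plus strand): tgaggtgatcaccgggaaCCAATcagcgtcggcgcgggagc
H2-Q7 (chr17:35439121-35439154, plus strand): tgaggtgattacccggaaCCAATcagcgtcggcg
H2-K1 (chr17:34000348-34000381, minus strand): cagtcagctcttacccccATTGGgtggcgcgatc

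Oas1g and Oas1a make the oligoadenylates that activate RNase L and are near-identical copies, as the printed bases show, so that their separate counts are uncertain. Bst2 encodes tetherin, which holds enveloped viruses at the cell surface, and had 128 and 90.0 CPM in P2Y2 KO+UTP cells, against 28.3 and 53.1 CPM in WT+UTP cells (log2 fold change 1.42, SE 0.26, adjusted p = 0.00896, and up to 0.0516 without P2Y2 KO+UTP replicate 1). Ifi203 is a member of the interferon-inducible p200 family of nuclear proteins and had 45.4 and 23.7 CPM in P2Y2 KO+UTP cells, against 10.7 and 17.7 CPM in WT+UTP cells (log2 fold change 1.28, SE 0.35, adjusted p = 0.0392, and up to 0.227 without P2Y2 KO+UTP replicate 1 or either WT+UTP library or either untreated P2Y2 KO library).

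Immediate early genes are those that cells transcribe within minutes of a stimulus. Of 22 such genes, 10 fell and 1 rose (50%, against 17.4% of all genes), with a median log2 fold change of -0.38. Egr1, a zinc finger transcription factor, had 54.7 and 43.9 CPM in P2Y2 KO+UTP cells, against 272 and 265 CPM in WT+UTP cells (log2 fold change -2.44, SE 0.10, adjusted p = 2.27e-05). Fos, a subunit of the AP-1 factor, had 18.6 and 14.5 CPM in P2Y2 KO+UTP cells, against 92.6 and 84.7 CPM in WT+UTP cells (log2 fold change -2.42, SE 0.20, adjusted p = 0.000744). Ier2 had 14.8 and 13.2 CPM in P2Y2 KO+UTP cells, against 43.8 and 43.5 CPM in WT+UTP cells (log2 fold change -1.64, SE 0.17, adjusted p = 0.00164), and Egr3 was lower at under 10 CPM (log2 fold change -1.75, SE 0.38, adjusted p = 0.0181, and up to 0.116 without P2Y2 KO+UTP replicate 1 or either WT+UTP library). The gene that rose was Atf3, a stress-induced transcription factor chosen after its values were seen (32.5 and 31.0 CPM in P2Y2 KO+UTP cells, against 22.7 and 18.1 CPM in WT+UTP cells; log2 fold change 0.64, SE 0.19, adjusted p = 0.0472, and up to 0.267 without any of the 4 UTP-treated libraries or either untreated P2Y2 KO library). Without UTP 9 genes fell and 1 rose, and Egr1 had 55.2 and 48.1 CPM in P2Y2 KO cells, against 202 and 218 CPM in WT cells. The count of calls was 6 without P2Y2 KO+UTP replicate 1, 8 without P2Y2 KO+UTP replicate 2 and 5 without either WT+UTP library. Egr1, Fos and Ier2 kept their calls without each library.

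Windows were found for 17 of the 22 genes. The CArG box, the site of serum response factor, was in 1.81% of all genes and in 1 of these 17 (Egr2). TGACGTCA, the site of cyclic AMP-responsive factors, was in 2.03% of all genes and in 1 of the 17 (Dusp1). Only exact matches within the windows were counted, so that sites farther away or with other letters would not be found. The capitals mark the CArG box in Egr2 and TGACGTCA in Dusp1.
Egr2 (chr10:67537476-67537521, plus strand): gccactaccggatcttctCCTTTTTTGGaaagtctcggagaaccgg
Dusp1 (chr17:26508590-26508633, minus strand): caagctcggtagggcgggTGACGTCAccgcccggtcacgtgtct

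Egr2 had 15.6 and 19.98 CPM in P2Y2 KO+UTP cells, against 46.9 and 39.9 CPM in WT+UTP cells, and Dusp1, a phosphatase that switches off MAP kinases, had 63.2 and 69.6 CPM in P2Y2 KO+UTP cells, against 146 and 140.4 CPM in WT+UTP cells. Both were chosen for their motif among the called members, after their values were seen.

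Of 29 genes for Gq proteins, phospholipase C, calcium release and NFAT, through which P2Y2 acts, 4 rose and 3 fell (24.1%, against 17.4% of all genes), with a median log2 fold change of 0.02. Plcb2, a phospholipase C of blood cells (5.95 and 9.99 CPM in P2Y2 KO+UTP cells, against 2.75 and 3.90 CPM in WT+UTP cells), Nfatc2 (6.35 and 5.30 CPM in P2Y2 KO+UTP cells, against 3.20 and 2.40 CPM in WT+UTP cells) and Prkcb, a protein kinase C (31.9 and 29.0 CPM in P2Y2 KO+UTP cells, against 18.4 and 18.8 CPM in WT+UTP cells), rose. Nfatc4 fell, with 30.7 and 34.6 CPM in P2Y2 KO+UTP cells, against 49.0 and 41.3 CPM in WT+UTP cells (log2 fold change -0.46, SE 0.14, adjusted p = 0.0495, and up to 0.269 without any of the 4 UTP-treated libraries). All 4 of these calls were lost without either WT+UTP library (highest adjusted p 0.155, 0.223, 0.087 and 0.269). Of 26 purinergic genes, which encode nucleotide and adenosine receptors and the enzymes that degrade nucleotides, 6 rose and 2 fell (30.8%). P2ry6, the receptor for UDP and a neighbour of P2ry2 on chromosome 7, had 23.3 and 23.9 CPM in P2Y2 KO+UTP cells, against 11.6 and 9.596 CPM in WT+UTP cells (log2 fold change 1.16, SE 0.18, adjusted p = 0.00548, and up to 0.0611 without WT+UTP replicate 2). Adora2a, an adenosine receptor, had 7.20 and 6.30 CPM in P2Y2 KO+UTP cells, against 3.45 and 2.70 CPM in WT+UTP cells (log2 fold change 1.14, SE 0.20, adjusted p = 0.00751, and up to 0.0766 without WT+UTP replicate 2), and Enpp2, the lysophospholipase autotaxin, had 112 and 76.2 CPM in P2Y2 KO+UTP cells, against 57.0 and 48.6 CPM in WT+UTP cells (log2 fold change 0.84, SE 0.24, adjusted p = 0.0482, and up to 0.25 without P2Y2 KO+UTP replicate 1 or either WT+UTP library or either untreated P2Y2 KO library). P2rx2, an ATP-gated channel, fell with 0.1 and 0.1 CPM in P2Y2 KO+UTP cells, against 1.80 and 1.70 CPM in WT+UTP cells (log2 fold change -4.04, SE 0.79, adjusted p = 0.0117, and up to 0.0738 without any of the 4 UTP-treated libraries), but untreated WT replicate 1 was as low as the P2Y2 KO libraries, at 0.1 and 0.95 CPM in the 2 WT libraries. Without WT+UTP replicate 2 only 1 of the 26 passed.

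Cell cycle genes were lower in P2Y2 KO+UTP cells. Of 34 genes, 27 fell and 2 rose (85.3%, against 17.4% of all genes), with a median log2 fold change of -0.54. Their sum was 2858 and 2768 CPM in P2Y2 KO+UTP cells, against 3563 and 3657 CPM in WT+UTP cells. Rrm2, a subunit of ribonucleotide reductase that supplies deoxynucleotides for replication, had 66.8 and 68.1 CPM in P2Y2 KO+UTP cells, against 125 and 122 CPM in WT+UTP cells (log2 fold change -0.86, SE 0.07, adjusted p = 0.000859). Cenpe, a motor protein of the kinetochore, had 52.1 and 45.6 CPM in P2Y2 KO+UTP cells, against 83.7 and 89.4 CPM in WT+UTP cells (log2 fold change -0.82, SE 0.08, adjusted p = 0.00161), and the mitotic kinase gene Aurka had 30.8 and 26.2 CPM in P2Y2 KO+UTP cells, against 47.9 and 49.9 CPM in WT+UTP cells (log2 fold change -0.78, SE 0.12, adjusted p = 0.00472, and up to 0.05 without WT+UTP replicate 2). The groups were apart by more than the distance between their libraries in each. Cdkn2a, which encodes inhibitors of the cell cycle, was one of the 2 that rose (20.4 and 20.1 CPM in P2Y2 KO+UTP cells, against 12.1 and 11.6 CPM in WT+UTP cells; log2 fold change 0.77, SE 0.11, adjusted p = 0.0043, and up to 0.0523 without WT+UTP replicate 2), and Ccnd1, the cyclin of the G1 phase and chosen after its values were seen, was the other (258 and 264 CPM in P2Y2 KO+UTP cells, against 171 and 174 CPM in WT+UTP cells; log2 fold change 0.60, SE 0.12, adjusted p = 0.0136, and up to 0.0981 without any of the 4 UTP-treated libraries). The same direction was present without UTP, where 19 genes fell and 2 rose. The calls numbered 22 without P2Y2 KO+UTP replicate 1, 19 without P2Y2 KO+UTP replicate 2, 20 without WT+UTP replicate 1 and 14 without WT+UTP replicate 2.

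CCAAT and TTTGAA, elements known from promoters of mitotic genes, were searched on both strands of the windows. Both were present in 7.97% of all 27025 genes and in 10 of the 25 cell cycle genes with a window, all 10 of which fell. TTTGAA alone was in 20.2% of all genes. The upstream stretches of the 4 called genes with the largest folds that hold both motifs within 120 bases are shown, with each motif in capitals (ATTGG and TTCAAA are the same motifs on the other strand, and CCAAT and TTTGAA do not overlap).
Top2a (chr11:99024190-99024265, minus strand): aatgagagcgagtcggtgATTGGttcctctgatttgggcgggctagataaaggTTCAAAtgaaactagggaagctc
Cdk1 (chr10:69352913-69352978, minus strand): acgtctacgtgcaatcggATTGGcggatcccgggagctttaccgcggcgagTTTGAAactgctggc
Kif11 (chr19:37376319-37376381, plus strand): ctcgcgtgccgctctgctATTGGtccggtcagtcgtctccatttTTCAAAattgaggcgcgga
Mki67 (chr7:135716454-135716538, minus strand): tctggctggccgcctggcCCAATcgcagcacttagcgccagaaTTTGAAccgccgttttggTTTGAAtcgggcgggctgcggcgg

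Top2a, the topoisomerase that untangles replicated chromosomes, had 185 and 158 CPM in P2Y2 KO+UTP cells, against 285 and 295 CPM in WT+UTP cells. Cdk1, the kinase that drives mitosis, had 75.5 and 64.2 CPM in P2Y2 KO+UTP cells, against 114 and 121 CPM in WT+UTP cells. Kif11, a motor of the spindle, had 44.4 and 39.3 CPM in P2Y2 KO+UTP cells, against 66.9 and 65.9 CPM in WT+UTP cells, and Mki67, the proliferation antigen Ki-67, had 221 and 206 CPM in P2Y2 KO+UTP cells, against 303 and 314 CPM in WT+UTP cells (log2 fold change -0.53, SE 0.10, adjusted p = 0.00991, and up to 0.084 without any of the 4 UTP-treated libraries).

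**Figure D3:**
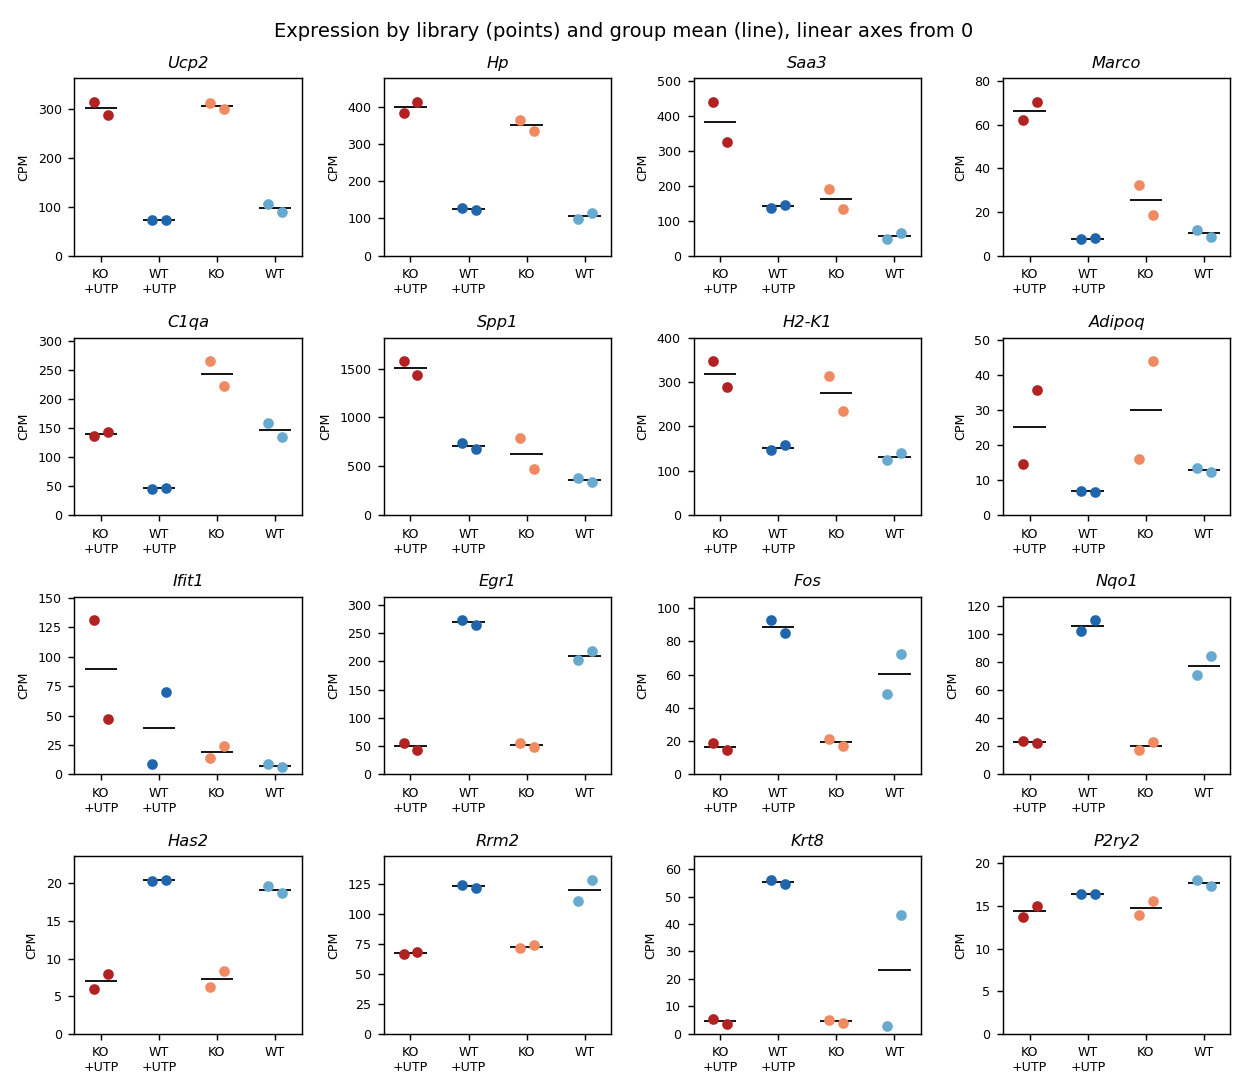
CPM of 16 genes in each library (points) with the group mean (line), on linear axes from 0, for P2Y2 KO+UTP, WT+UTP, untreated P2Y2 KO and untreated WT cells. Ucp2, Hp and Marco are higher and Egr1, Fos, Nqo1, Has2 and Rrm2 lower in both P2Y2 KO+UTP libraries than in both WT+UTP libraries, Adipoq and Ifit1 spread widely within a group, Krt8 is also low in untreated WT replicate 1, and P2ry2 is close to level.

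Collagen genes were called at a share near that of all genes. Of 29 collagen genes, 2 rose and 2 fell (13.8%, against 17.4% of all genes), with a median log2 fold change of -0.03. Col11a1, a fibrillar collagen, had 17.5 and 21.98 CPM in P2Y2 KO+UTP cells, against 40.3 and 39.4 CPM in WT+UTP cells (log2 fold change -1.01, SE 0.20, adjusted p = 0.013, and up to 0.0899 without P2Y2 KO+UTP replicate 1 or either WT+UTP library). Of 30 genes of TGF-beta signalling and fibrosis, 5 fell and 1 rose (20%, against 17.4% of all genes). Thbs2, a matrix glycoprotein that restrains vessel growth, was the most abundant of the 4 with the largest folds (384 and 389.9 CPM in P2Y2 KO+UTP cells, against 824 and 756 CPM in WT+UTP cells; log2 fold change -1.03, SE 0.11, adjusted p = 0.00166), and Cthrc1, a secreted protein of activated fibroblasts, had 7.85 and 6.89 CPM in P2Y2 KO+UTP cells, against 19.4 and 19.04 CPM in WT+UTP cells (log2 fold change -1.38, SE 0.20, adjusted p = 0.00393). Cyr61, a matricellular target of mechanical signalling, had 335 and 433 CPM in P2Y2 KO+UTP cells, against 695 and 697 CPM in WT+UTP cells, and Ltbp1, which anchors latent TGF-beta in the matrix, had 33.1 and 39.8 CPM in P2Y2 KO+UTP cells, against 60.2 and 61.6 CPM in WT+UTP cells. Thbs2, Cthrc1 and Ltbp1 kept their calls without each library, and Cyr61 lost its call without either WT+UTP library (highest adjusted p 0.0585). Without either WT+UTP library 0 collagens and 4 genes of the TGF-beta list passed.

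Proteoglycan genes moved in both directions, 5 up and 2 down of 14 (50%, against 17.4% of all genes). Has2, the main hyaluronan synthase of fibroblasts, had 5.95 and 7.99 CPM in P2Y2 KO+UTP cells, against 20.3 and 20.5 CPM in WT+UTP cells (log2 fold change -1.54, SE 0.17, adjusted p = 0.00194). Vcan, which encodes the hyaluronan-binding proteoglycan versican, had 112 and 96.3 CPM in P2Y2 KO+UTP cells, against 223 and 219 CPM in WT+UTP cells (log2 fold change -1.08, SE 0.16, adjusted p = 0.00446). The small leucine-rich proteoglycan genes Podn and Fmod rose, Podn with 52.2 and 47.2 CPM in P2Y2 KO+UTP cells, against 27.3 and 26.99 CPM in WT+UTP cells (log2 fold change 0.87, SE 0.09, adjusted p = 0.00168) and Fmod with 180.4 and 169 CPM in P2Y2 KO+UTP cells, against 108 and 106 CPM in WT+UTP cells (log2 fold change 0.71, SE 0.09, adjusted p = 0.00318). All 4 kept their calls without each library and had the same direction without UTP. Of 29 proteases and inhibitors, 5 rose and 2 fell (24.1%), led by Adam8, a membrane protease of leukocytes (299 and 349 CPM in P2Y2 KO+UTP cells, against 134 and 122 CPM in WT+UTP cells; log2 fold change 1.35, SE 0.19, adjusted p = 0.00374), and Mmp3, stromelysin (179 and 155 CPM in P2Y2 KO+UTP cells, against 82.8 and 74.3 CPM in WT+UTP cells; log2 fold change 1.09, SE 0.29, adjusted p = 0.0377, and up to 0.208 without any of the 4 UTP-treated libraries or either untreated P2Y2 KO library). Adam12 fell, with 90.6 and 107 CPM in P2Y2 KO+UTP cells, against 161 and 148 CPM in WT+UTP cells (log2 fold change -0.64, SE 0.16, adjusted p = 0.0314, and up to 0.184 without any of the 4 UTP-treated libraries). Of 28 genes of Wnt and Bmp signalling, 3 fell and 1 rose (14.3%). Bmp4, a growth factor of mesoderm and fat progenitors, had 42.5 and 41.02 CPM in P2Y2 KO+UTP cells, against 65.4 and 63.9 CPM in WT+UTP cells (log2 fold change -0.63, SE 0.06, adjusted p = 0.00113). Without WT+UTP replicate 2 the calls numbered 1 protease or inhibitor and 2 Wnt and Bmp genes.

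Of 33 angiogenic factors, 5 rose and 4 fell (27.3%, against 17.4% of all genes). Vegfc, the lymphatic growth factor, had 87.3 and 66.8 CPM in P2Y2 KO+UTP cells, against 38.2 and 38.7 CPM in WT+UTP cells (log2 fold change 1.01, SE 0.14, adjusted p = 0.00366), and Apln, the apelin peptide hormone of vessels and heart, had 52.7 and 53.4 CPM in P2Y2 KO+UTP cells, against 31.9 and 29.8 CPM in WT+UTP cells (log2 fold change 0.79, SE 0.09, adjusted p = 0.00251). Nrp2, a co-receptor of Vegfc, had 195 and 189 CPM in P2Y2 KO+UTP cells, against 104 and 98.2 CPM in WT+UTP cells (log2 fold change 0.93, SE 0.14, adjusted p = 0.00507, and up to 0.0589 without WT+UTP replicate 2). Vegfa, the main endothelial growth factor and chosen after its values were seen, fell, with 141 and 156 CPM in P2Y2 KO+UTP cells, against 207 and 197 CPM in WT+UTP cells (log2 fold change -0.44, SE 0.10, adjusted p = 0.0247, and up to 0.158 without any of the 4 UTP-treated libraries). Of 29 hypoxia and glycolysis genes, 10 rose and 0 fell by small folds (34.5% called; median 0.20), Epas1, the hypoxia-inducible factor of vessels and macrophages, being the largest (141 and 151 CPM in P2Y2 KO+UTP cells, against 81.5 and 71.2 CPM in WT+UTP cells; log2 fold change 0.94, SE 0.12, adjusted p = 0.00284). Without either WT+UTP library 1 of these 29 genes passed. For the angiogenic list the count was 3 without P2Y2 KO+UTP replicate 1, 5 without P2Y2 KO+UTP replicate 2, 4 without WT+UTP replicate 1 and 2 without WT+UTP replicate 2.

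Sterol synthesis genes rose together. Of 28 genes of cholesterol and fatty acid synthesis, 18 rose and 0 fell (64.3%, against 17.4% of all genes). All 28 had a positive log2 fold change, and the median was 0.30. The median absolute log2 fold change of all genes tested was 0.185. Insig1, which holds back the sterol-sensing complex, had 94.5 and 106 CPM in P2Y2 KO+UTP cells, against 61.4 and 62.1 CPM in WT+UTP cells (log2 fold change 0.71, SE 0.10, adjusted p = 0.00366). Lss, lanosterol synthase, had 85.0 and 82.3 CPM in P2Y2 KO+UTP cells, against 54.8 and 54.8 CPM in WT+UTP cells (log2 fold change 0.62, SE 0.08, adjusted p = 0.00269). Both calls were kept without each library, whereas the count of calls was 7 without either P2Y2 KO+UTP library and 4 without either WT+UTP library.

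Adipocyte genes were uneven between libraries. Of 13 such genes, 6 rose and 0 fell (46.2%, against 17.4% of all genes), with a median of 1.08. Adipoq, the fat hormone adiponectin, had 14.5 and 35.9 CPM in P2Y2 KO+UTP cells, against 6.90 and 6.70 CPM in WT+UTP cells (log2 fold change 1.90, SE 0.54, adjusted p = 0.0458, and up to 0.236 without P2Y2 KO+UTP replicate 2 or either WT+UTP library), and Cfd, which encodes adipsin, had 23.9 and 72.3 CPM in P2Y2 KO+UTP cells, against 7.35 and 6.997 CPM in WT+UTP cells (log2 fold change 2.75, SE 0.64, adjusted p = 0.0223, and up to 0.144 without P2Y2 KO+UTP replicate 2 or either WT+UTP library). The second P2Y2 KO+UTP library was more than 2-fold above the first in both genes. Without the second P2Y2 KO+UTP library 0 genes of the list passed, without either WT+UTP library 0, and without the first P2Y2 KO+UTP library 8. The first P2Y2 KO+UTP library is the one with 0.1 CPM of Xist, and with the male-share covariate 12 of the 13 passed (Adipoq and Cfd at an adjusted p of 0.0019 and 0.000796). Untreated P2Y2 KO replicate 2 was likewise the highest untreated library, at 15.99 and 44.1 CPM of Adipoq in the 2 P2Y2 KO libraries, against 13.4 and 12.2 CPM in WT cells.

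Of 13 genes of the IGF system, 5 rose and 2 fell (53.8%, against 17.4% of all genes). The binding proteins Igfbp2 (653 and 560.3 CPM in P2Y2 KO+UTP cells, against 276 and 312 CPM in WT+UTP cells; log2 fold change 1.05, SE 0.11, adjusted p = 0.0016), Igfbp4 and Igfbp3 rose, and Igf2, a fetal growth factor, fell (16.3 and 21.4 CPM in P2Y2 KO+UTP cells, against 34.03 and 29.5 CPM in WT+UTP cells; log2 fold change -0.74, SE 0.18, adjusted p = 0.0253, and up to 0.156 without P2Y2 KO+UTP replicate 1 or either WT+UTP library). Of 20 imprinted growth genes, 9 fell and 1 rose (50%), with a median of -0.43. H19, a non-coding RNA expressed from the maternal allele beside Igf2, had 10.5 and 12.4 CPM in P2Y2 KO+UTP cells, against 25.7 and 22.8 CPM in WT+UTP cells (log2 fold change -1.08, SE 0.17, adjusted p = 0.00598, and up to 0.0564 without WT+UTP replicate 1), and Peg3, a zinc finger protein expressed from the paternal allele, had 33.4 and 36.4 CPM in P2Y2 KO+UTP cells, against 68.9 and 67.2 CPM in WT+UTP cells (log2 fold change -0.96, SE 0.08, adjusted p = 0.000914). Peg3 had a log2 fold change of -0.96 with UTP and -0.44 without it (unadjusted p of the difference 0.00178). Peg3 kept its call without each library. Without WT+UTP replicate 1 the calls numbered 2 imprinted genes and 3 IGF genes.

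Of 37 Hox genes and other regional or lineage transcription factors, 12 fell, 1 rose and 24 were not called (35.1% called, against 17.4% of all genes; median log2 fold change -0.40). Tbx15, a T-box factor of regional fat depots, had 1.149 and 1.40 CPM in P2Y2 KO+UTP cells, against 3.10 and 2.80 CPM in WT+UTP cells (log2 fold change -1.20, SE 0.22, adjusted p = 0.00868, and up to 0.0693 without P2Y2 KO+UTP replicate 1 or either WT+UTP library), and Runx2, the factor of bone lineage, had 8.35 and 10.2 CPM in P2Y2 KO+UTP cells, against 18.04 and 16.7 CPM in WT+UTP cells (log2 fold change -0.90, SE 0.14, adjusted p = 0.00532, and up to 0.0518 without WT+UTP replicate 1). Hoxc6 and Hoxa4, which mark position along the body axis, had folds of -0.73 and -0.62 on the log2 scale at 10.7 CPM or less. The count of calls was 3 without P2Y2 KO+UTP replicate 1, 5 without P2Y2 KO+UTP replicate 2, 1 without WT+UTP replicate 1 and 2 without WT+UTP replicate 2.

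Of 24 detoxification genes, 6 rose and 8 fell (58.3%, against 17.4% of all genes). Nqo1, a quinone reductase and a target of the oxidative stress factor Nrf2, had 23.7 and 22.2 CPM in P2Y2 KO+UTP cells, against 102 and 109.9 CPM in WT+UTP cells (log2 fold change -2.20, SE 0.13, adjusted p = 0.000223). Without UTP it had 17.4 and 23.4 CPM in P2Y2 KO cells, against 70.6 and 84.1 CPM in WT cells, and its call was kept without each library. Slc7a11, the cystine transporter and another Nrf2 target, fell (16.4 and 15.4 CPM in P2Y2 KO+UTP cells, against 26.4 and 28.04 CPM in WT+UTP cells; log2 fold change -0.77, SE 0.15, adjusted p = 0.0103, and up to 0.0861 without any of the 4 UTP-treated libraries). Ces1d, a carboxylesterase of adipocytes, was uneven between the P2Y2 KO+UTP libraries like the adipocyte genes (1.25 and 3.40 CPM in P2Y2 KO+UTP cells, against 0.5 and 0.3 CPM in WT+UTP cells; log2 fold change 2.53, SE 0.63, adjusted p = 0.0284, and up to 0.176 without P2Y2 KO+UTP replicate 2 or either WT+UTP library). The count of calls was 8 without either P2Y2 KO+UTP library and 6 without either WT+UTP library.

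Epithelial genes were much lower in P2Y2 KO+UTP cells. Of 14 tested, 11 fell and 0 rose in P2Y2 KO+UTP cells (78.6%, against 17.4% of all genes). The median log2 fold change was -3.55, or -3.24 with the 2 genes that were at 0 in both P2Y2 KO+UTP libraries set to a floor of 3 counts per library. Cldn4, a tight junction protein, had 2 scaled counts over both P2Y2 KO+UTP libraries and 613 over both WT+UTP libraries (ratio 306.5, counting interval 84.5 to 2537), with an adjusted p of 0.00876, and up to 0.064 without P2Y2 KO+UTP replicate 1 or WT+UTP replicate 2. Krt6a, a keratin of stressed epithelium outside the list, had no count in P2Y2 KO+UTP cells, against 2.55 and 1.95 CPM in WT+UTP cells, at least 15-fold lower. Krt8, a keratin of simple epithelia that was listed with mesothelial genes, had 5.40 and 3.60 CPM in P2Y2 KO+UTP cells, against 56.2 and 54.6 CPM in WT+UTP cells (log2 fold change -3.62, SE 0.90, adjusted p = 0.0284, and up to 0.13 without any of the 4 UTP-treated libraries), and Cdh1, the epithelial cadherin, had 0.55 and 0.55 CPM in P2Y2 KO+UTP cells, against 8.35 and 8.396 CPM in WT+UTP cells (log2 fold change -3.91, SE 0.88, adjusted p = 0.0198, and up to 0.106 without any of the 4 UTP-treated libraries). The groups were far apart with UTP.

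The epithelial genes also differed between the untreated WT libraries. The summed list was at 34.5 and 33.2 CPM in P2Y2 KO+UTP cells, against 109.8 and 108.1 CPM in WT+UTP cells, and at 34.6 and 32.1 CPM in P2Y2 KO cells, against 28.9 and 89.3 CPM in WT cells. WT replicate 1 was thus as low as the P2Y2 KO libraries. Defining markers Epcam and Cdh1 were at 0.35 to 0.55 CPM in P2Y2 KO+UTP cells. The count of calls was 2 without P2Y2 KO+UTP replicate 1, 3 without P2Y2 KO+UTP replicate 2, 2 without WT+UTP replicate 1 and 1 without WT+UTP replicate 2. Their part in the other differences was not tested.

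Among other cell types, 5 of 19 mesenchymal progenitor genes rose and 0 fell (26.3%, against 17.4% of all genes), including Cd34 (132 and 112 CPM in P2Y2 KO+UTP cells, against 67.9 and 65.2 CPM in WT+UTP cells; log2 fold change 0.88, SE 0.15, adjusted p = 0.00685, and up to 0.0697 without either WT+UTP library) and Pdgfra, the receptor that marks these cells (836 and 735 CPM in P2Y2 KO+UTP cells, against 640.1 and 612 CPM in WT+UTP cells; log2 fold change 0.33, SE 0.07, adjusted p = 0.0169, and up to 0.132 without P2Y2 KO+UTP replicate 1 or either WT+UTP library), while Thy1, Eng, Cd44 and the fibroblast marker Dpp4 did not pass (adjusted p 0.669, 0.434, 0.144 and 0.825). Of 10 B cell genes, 5 rose and 0 fell (50%, against 17.4% of all genes), and 9 of the 10 had a positive log2 fold change. Their sum was 293.7 and 132.6 CPM in P2Y2 KO+UTP cells, against 164.9 and 98.96 CPM in WT+UTP cells, so that the groups overlapped, and 2 of the 10 passed with the male-share covariate. Cd79a, a chain of the B cell receptor, had 3.05 and 1.35 CPM in P2Y2 KO+UTP cells, against 0.3 and 0.15 CPM in WT+UTP cells (log2 fold change 3.26, SE 0.60, adjusted p = 0.00962, and up to 0.0894 without either WT+UTP library), and without WT+UTP replicate 2 the count was 0 of 10. Of 15 endothelial genes, 2 rose and 1 fell (20%, against 17.4% of all genes), and the markers Pecam1 and Cdh5 did not pass (adjusted p 0.0878 and 0.316). Of 14 smooth muscle genes, 2 rose (14.3%), led by Des, the muscle filament desmin (356 and 354 CPM in P2Y2 KO+UTP cells, against 214 and 242 CPM in WT+UTP cells; log2 fold change 0.64, SE 0.09, adjusted p = 0.00394), and Acta2 and Myh11 did not pass (adjusted p 0.994 and 0.126). With the male-share covariate 8 of the 14 passed, Acta2 and Myh11 among them (adjusted p 0.00897 and 0.000388). The summed list was 5189 and 7106 CPM in P2Y2 KO+UTP cells, against 6055 and 6321 CPM in WT+UTP cells, so that the groups overlapped. The first P2Y2 KO+UTP library is the one with 0.1 CPM of Xist, so that male share and pool cannot be told apart there.

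In the remaining immune lists, 4 of 5 dendritic cell genes (80%), 1 of 7 MHC class II genes (14.3%; H2-Aa, 7.75 and 5.25 CPM in P2Y2 KO+UTP cells, against 3.35 and 3.50 CPM in WT+UTP cells), 1 of 3 T and NK cell genes (33.3%; Il7r) and 2 of 5 neutrophil and mast cell genes (40%; Cpa3 and Tpsb2) rose and 0 fell, against 17.4% of all genes called. The MHC class II share was thus below that of all genes. With the male-share covariate 0 T and NK cell and 0 neutrophil and mast cell genes passed. Without WT+UTP replicate 2 each of these 4 lists had 0 calls. The mesenchymal list had 1 call, the endothelial list 0 and the smooth muscle list 1 without that library. Of 12 mesothelial genes, 3 keratins fell (Krt8, Krt18 and Krt7) and Rspo1 rose, and the markers Msln (57.8 and 47.5 CPM in P2Y2 KO+UTP cells, against 40.9 and 41.7 CPM in WT+UTP cells) and Upk3b (742 and 619 CPM in P2Y2 KO+UTP cells, against 512 and 582 CPM in WT+UTP cells) did not pass. With edgeR 0 of 8 Schwann cell, 0 of 6 cardiac muscle and 0 of 1 red blood cell genes passed (0, 1 and 0 at an unadjusted p under 0.05, and 0 with DESeq2).

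**Figure D4:**
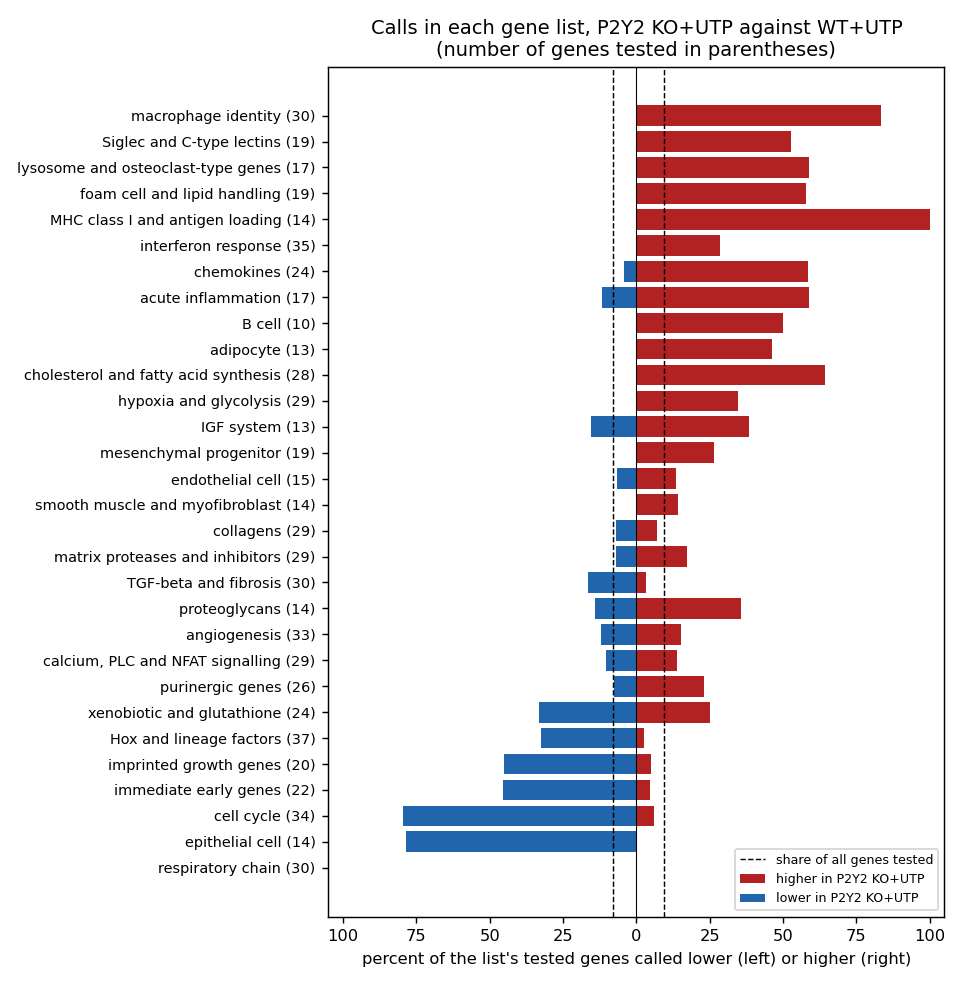
Percent of the tested genes of each of 30 lists that were called higher (right, red) or lower (left, blue) in P2Y2 KO+UTP than in WT+UTP cells, with the number tested in parentheses. Dashed lines mark the shares over all genes tested, 9.52% higher and 7.9% lower. MHC class I, macrophage, sterol synthesis, lysosome and chemokine lists extend far to the right, and cell cycle and epithelial lists far to the left.

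The study's own list of UTP target genes had 40 tested members, of which 23 rose and 2 fell (P2rx2 and Col17a1), with a median of 0.96 (62.5% called, against 17.4% of all genes). Since it was chosen on these samples, this is not independent evidence of its direction. Without UTP 3 of the 40 rose and 0 fell. The count with UTP was 15 without P2Y2 KO+UTP replicate 1, 12 without P2Y2 KO+UTP replicate 2, 7 without WT+UTP replicate 1 and 4 without WT+UTP replicate 2.

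A larger share of the genes near P2ry2 was called than of all genes, a difference that was not tested. P2ry2 lies on chromosome 7, and of 133 other tested genes within 5 Mb (megabases), 42 passed (31.6%, against 17.4% of all genes), 24 higher and 18 lower. The share was 31.9% within 2 Mb, 31.1% from 2 to 5 Mb, 17.0% from 5 to 10 Mb, 15.8% from 10 to 20 Mb and 18.2% beyond. At least 2-fold differences made up 12% of the 133 genes, against 4.29% of all genes. Of the 42 calls, 32 were also called without UTP.

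Ucp2, a mitochondrial carrier protein that is abundant in macrophages, was higher in P2Y2 KO+UTP cells (316 and 289 CPM in P2Y2 KO+UTP cells, against 72.7 and 73.2 CPM in WT+UTP cells; log2 fold change 2.06, SE 0.09, adjusted p = 2.89e-05). Without UTP it had 314 and 300.4 CPM in P2Y2 KO cells, against 106 and 88.8 CPM in WT cells. Gm35082, a long non-coding RNA, had 2.30 and 2.30 CPM in P2Y2 KO+UTP cells and no count in WT+UTP cells (at least 15.3-fold higher). Tpbgl had 12.4 and 10.9 CPM in P2Y2 KO+UTP cells, against 4.75 and 3.95 CPM in WT+UTP cells (log2 fold change 1.43, SE 0.15, adjusted p = 0.00168). Lrrc32, the cell-surface anchor of latent TGF-beta, fell (388 and 423 CPM in P2Y2 KO+UTP cells, against 792 and 772 CPM in WT+UTP cells; log2 fold change -0.94, SE 0.14, adjusted p = 0.00427), and Rrm1, the large subunit of ribonucleotide reductase, fell by 0.51 on the log2 scale. These 5 genes kept their calls without each library.

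A cluster of Trim genes, which encode antiviral ubiquitin ligases, lay within this region and moved in both directions. Trim12a had 2.50 and 1.60 CPM in P2Y2 KO+UTP cells, against 12.8 and 16.4 CPM in WT+UTP cells (log2 fold change -2.83, SE 0.21, adjusted p = 0.000534) and Trim30d 3.85 and 2.75 CPM in P2Y2 KO+UTP cells, against 13.3 and 22.8 CPM in WT+UTP cells (log2 fold change -2.45, SE 0.32, adjusted p = 0.00334). Trim34b had 4.90 and 3.797 CPM in P2Y2 KO+UTP cells, against 0.2 and 0.4 CPM in WT+UTP cells (log2 fold change 3.83, SE 0.31, adjusted p = 0.000744) and Trim12c 55.3 and 45.0 CPM in P2Y2 KO+UTP cells, against 21.2 and 33.3 CPM in WT+UTP cells. Trim12a and Trim12c are close copies of each other whose reads may have been shared, so that their separate values are uncertain. The count of calls within 5 Mb was 25 without P2Y2 KO+UTP replicate 1, 20 without WT+UTP replicate 1 and 19 without WT+UTP replicate 2.

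**Figure D5:**
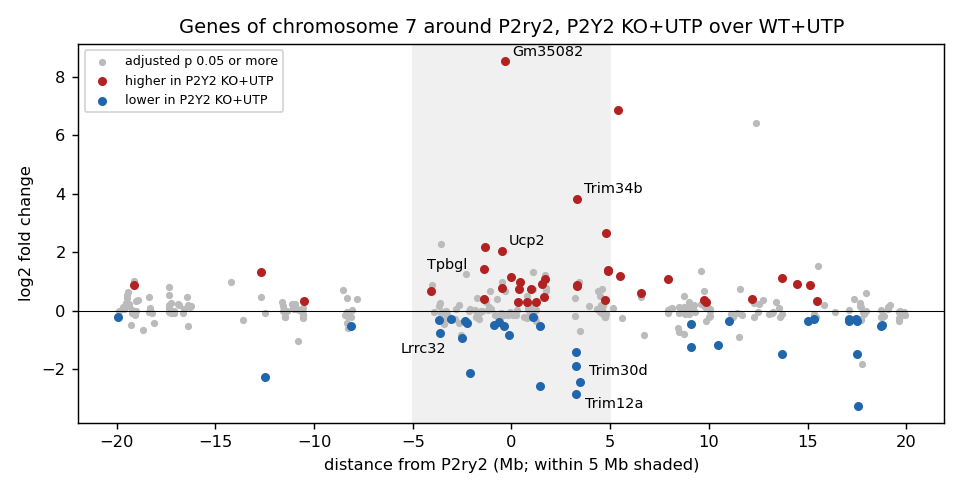
Log2 fold change (P2Y2 KO+UTP over WT+UTP) of tested genes of chromosome 7 within 20 Mb of P2ry2, by distance from that gene in Mb, with called genes in red (higher) and blue (lower). Called genes are denser within the shaded 5 Mb, where 42 of 133 passed, and include Gm35082, Ucp2 and the Trim cluster.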

How the data were processed

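RNA of 8 pools of cADSC was sequenced, 2 libraries in each of the 4 groups, with 2 cultures named for each condition. Per the labels and the methods, the authors used Trimmomatic for trimming, STAR for alignment (builds named: GRCm38.p4 and mm10) and HTSeq for counting reads in genes. The strand setting of the counting is not given in the sources used here. The deposited values are expected counts in kind, for which the authors scaled the counts of each library to a common total and rounded them up to whole numbers. Low values are thereby slightly raised, and the precision of a library is that of its total before scaling, which was estimated here from the values. Each table was joined to the other on its gene identifier. CPM was calculated from these values without TMM.

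Genes that exceeded 0.5 CPM (10 scaled counts) in 2 or more libraries entered edgeR 4.0.16 under R 4.3.3 (TMM, quasi-likelihood F test) on the rounded values, with the 4 groups in 1 model and 4 residual degrees of freedom, and Benjamini-Hochberg adjustment ran over all 17529 genes (threshold 0.05). Every adjusted p in the text is from this test unless another tool is named. P-values measure the spread between these pooled samples only. An exact permutation test of 2 against 2 libraries cannot go below p = 0.333 (two-sided) and was not used. The standard error is the absolute log2 fold change divided by the square root of F. Counting intervals are exact and cover counting error only. Symbols shared by several identifiers (52 tested genes) were taken at the identifier with the highest mean for the gene lists.

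The members and the gene lists were chosen with earlier results of these data known. Genes named are P2ry2, the 15 highest and 15 lowest log2 fold changes among called genes with a mean of at least 1 CPM in the higher group and no overlap between groups, the 10 lowest p of the difference between effects, up to 4 called genes per list by absolute log2 fold change, defining markers, and calls within 5 Mb of P2ry2. Genes printed for a motif, and those so described, were added after their values were seen. Positions came from GENCODE M21 on GRCm38 and promoter windows from RefSeq on GRCm38.p6. Alternatives were DESeq2 1.42.0, limma 3.58.1, other normalizations and minimums, fits without single libraries, a male-share covariate and a replicate block. Same-numbered libraries of different genotypes were not taken as pairs.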

Additional observations from a re-analysis of the deposited data

How the results depend on the processing

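The number of genes called between P2Y2 KO+UTP and WT+UTP cells (3053) was 631 to 4116 with 1 library left out, and 752 with a further bound of 2-fold. DESeq2 gave 2062, no minimum 3601, a minimum of 2 CPM 2903, the 4 UTP-treated libraries alone 4202, the male-share covariate 3243 and limma 3106 or 3107, all within 1.5 times. The difference of the genotype effects with and without UTP gave 0 calls, 6 with DESeq2, 28 with no minimum and 0 to 273 with 1 library left out, the highest without WT replicate 2. The untreated genotype comparison (3628) gave 2175 with DESeq2, 1239 with the untreated libraries alone, 1435 with the male-share covariate, 541 with the 2-fold bound and 719 to 3981 with 1 library left out. The fold change rule (1165) gave 675 with the minimum in both groups, 616 with it in each library, 8147 with no minimum and 463 with 1 CPM added. The causes were not tested.

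Of 815 listed genes, 331 were called, against 115 to 401 with 1 library left out and 131 with the 2-fold bound. Of 133 genes within 5 Mb of P2ry2, 42 were called, against 19 to 49 and 16. Of the 233 named genes, 212 were called, against 84 to 216 and 124. No value changed direction past the threshold. Of 4392 values of named genes under 19 settings, 3865 kept direction and side of the threshold, 502 lost significance and 25 gained it.

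With the replicate block 2897 genes were called, 2720 of them among the 3053. Same-numbered deviations correlated at r = 0.42 between P2Y2 KO+UTP and P2Y2 KO libraries, whose first libraries also share low Xist, and at r = -0.002 between P2Y2 KO+UTP and WT+UTP libraries, which were not taken as pairs; the other 4 pairs of groups lay between -0.14 and 0.114. Depth limits low genes, since a count of 0 allows up to 0.15 CPM, and 4 residual degrees of freedom limit the rest.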

Other observations

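Of 30 genes of the respiratory chain, edgeR and DESeq2 called 0 (median log2 fold change 0.00), and 5 had an unadjusted p under 0.05 with edgeR, whereas 3 passed with the male-share covariate. Of 18 ribosomal and other reference genes, 2 rose (B2m and Gusb), with a median of 0.01. Of 20 genes often variable between mouse strains, 4 rose and 4 fell (40% called, against 17.4% of all genes). The called members with the largest folds were Trim34b, Trim12a, Trim30d and Trim5. All of these lie within 5 Mb of P2ry2, so that this share overlaps the calls described for that region. Entpd4 and Entpd4b, near-identical nucleotidases whose reads may have been shared, rose by 1.34 and 1.36 on the log2 scale (edgeR adjusted p 0.00384 and 0.00522) and were chosen after their values were seen. Entpd4 had 6.25 and 6.89 CPM in P2Y2 KO+UTP cells, against 2.10 and 3.10 CPM in WT+UTP cells.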
